A study of Mus musculus with 8 samples.

Results

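The cells described here are 4079 dentate gyrus barcodes, of 26036 barcodes in all, that carried transcripts of at least 2 of Gpr17, Bmp4, Neu4 and Enpp6, genes that mark the step between an oligodendrocyte precursor and a myelinating oligodendrocyte. They were chosen by which of the genes given here were detected in each barcode. UMIs (unique molecular identifiers) are the counted molecules. Quality limits of more than 500 detected genes and less than 10% of UMIs from mitochondrial genes left 24376 barcodes, and 5063 of those carried at least 2 of the 4 markers. The limit of at most 2 of the mature genes Mog, Mag, Mobp, Opalin and Cldn11 then removed 229 barcodes, and the limit of at most 2 of 10 replication and mitosis genes (Mcm2 to Mcm7, Pcna, Top2a, Cdk1 and Ccnb1) removed 582. The limit of at most 1 of Cx3cr1, Cldn5, Aldoc, Gja1, Stmn2 and Eomes, genes of other lineages, removed 173 more. The 4079 cells that were left are called members below. They were compared with 931 precursors, which carried both Pdgfra and Cspg4, at most 1 of the 4 markers and met the same other limits, and with 6274 oligodendrocytes, which carried Mog, Mag and at least 3 of the 5 mature genes, with at most 1 of the 4 markers.

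The cells came from mice carrying Ki67-creERT2, a tdTomato reporter with a floxed stop and Nestin-GFP, on a mixed background of C57BL/6J and CD1. Tamoxifen was given on 6 days and the mice were culled on day 8, so that recombination marks cells that expressed Ki67, and their daughters. All samples carried these alleles and received tamoxifen, and there was no untreated group. The dentate gyrus was microdissected and sorted by flow cytometry for GFP and tdTomato, with 2 to 5 male and female mice pooled in each experiment, so that values of single animals could not be separated. There were 7 experiments in 8 libraries, 1 at 1 month of age, 3 at 2 months and 3 labeled 6 months (6 to 8 months by the methods). The 2-month libraries used Version 2 of the 10x Genomics chemistry and the others used Version 3, so that age and chemistry cannot be told apart wherever 2 months is compared. The first 2-month experiment had a library of GFP+tdTomato+ and GFP-tdTomato- cells and one of GFP+tdTomato- cells, which were summed. The experiment was the unit of replication throughout.

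Oligodendrocyte precursors divide throughout life, and part of their daughters leave the cycle, switch off precursor genes and pass through a short premyelinating state before they wrap axons. Gpr17, a receptor that is switched off before myelination, and Bcas1, Tcf7l2, Itpr2 and Enpp6, a choline phosphodiesterase of newly formed oligodendrocytes, are widely used marks of that state. Neu4 is a sialidase, and Bmp4 is a secreted ligand of the bone morphogenetic protein pathway. Notch signaling through Hes1 and Hes5, and the Id proteins, are known to hold precursors back, whereas Myrf drives the genes of myelin.

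The libraries held between 4861883 and 43826338 UMIs. The median member had 7133 UMIs, the median precursor 4220 and the median oligodendrocyte 4646.5, which bears on every share of cells with a UMI below, since deeper cells show more genes. The rule itself favors deep cells, because a cell with more UMIs is more likely to show 2 of 4 markers. Members numbered 510 at 1 month, 198, 93 and 172 in the 2-month experiments and 84, 1217 and 1805 in the 6-month experiments. The last 2 of these experiments therefore held most members. No barcode sequence of a member occurred in more than 1 library (0 of 4079), whereas 59 of 25976 distinct sequences did among all barcodes.

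The name committed or newly formed oligodendrocyte fits few of the members. Gpr17 was found in 98.1% of members and Neu4 in 98.2%, but Bmp4 in 23.9% (975 cells) and Enpp6 in 4.14% (169 cells), and 3077 members (75.4%) were chosen by Gpr17 and Neu4 alone. Only 131 members (3.21%) carried all 4 markers. Pdgfra, the platelet-derived growth factor receptor of precursors, was found in 93.9% of members and the precursor proteoglycan gene Cspg4 in 85.9%, and 3402 members (83.4%) carried both. Gpr17 was also found in 40.5% of the precursors. In 661 microglia, which should lack these genes, the shares were 0.151% for Pdgfra and for Gpr17 at a median of 2993 UMIs, far below the shares in members. With every cell thinned to 1500 UMIs, which left out 95 shallower members and 81 precursors, Pdgfra was found in 78.7% of members and 87.6% of precursors. The members are therefore named by their rule and not as a cell type. They are treated as 2 sets, the 169 members with Enpp6 and the 3910 without it, a split made after the cells had been counted. The sets are set beside each other below as a description with no test, while members without Enpp6 also replaced all members in 2 of the tests, between stages and between ages.

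**Figure D1:**
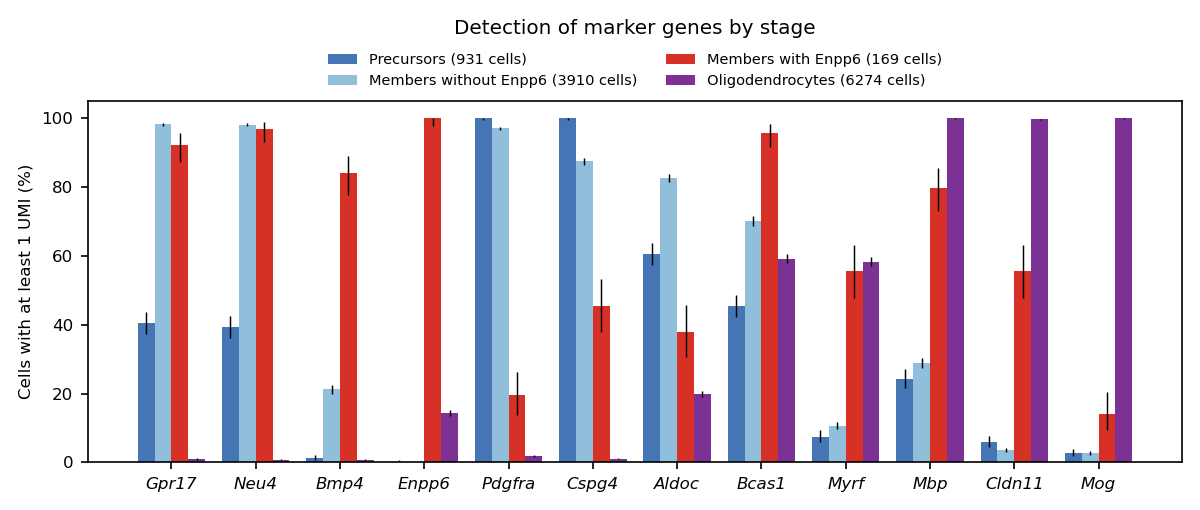
Share of cells with at least 1 UMI of each gene (y axis, percent) in precursors, members without Enpp6, members with Enpp6 and oligodendrocytes, with 95% exact binomial intervals that cover counting error only. Members without Enpp6 resemble precursors in Pdgfra (97.1% against 100% by rule), while members with Enpp6 carried Pdgfra in 19.5% of cells and Mbp in 79.9%.

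The rule used Bmp4 and Gpr17, and the split used Enpp6, so these shares are a description. In members with Enpp6, Bmp4 was found in 84.0%, Gpr17 in 92.3%, Bcas1 in 95.9% and Pdgfra in 19.5%, at a median of 9533 UMIs. The other members had Bmp4 in 21.3%, Bcas1 in 70.2% and Pdgfra in 97.1%, at 7103.5 UMIs. Myrf was found in 55.6% of members with Enpp6 and 10.6% of the others, and Mbp, the myelin basic protein gene, in 79.9% and 28.8%. In the microglia described above Myrf was found in 0 of 661 cells, which allows up to 0.454%, and Mbp in 5.14%, and precursors carried Myrf in 7.41% and Mbp in 24.3%. Thinned to 1500 UMIs, the Mbp share was 55.1% in members with Enpp6, 7.44% in the others, 11.2% in precursors and 2.81% in microglia, so that the others were not above precursors at equal depth. The mature genes remained scarce by the rule, with Mog in 14.2% and Opalin in 2.96% of members with Enpp6. Among the genes of other lineages, the 1 that the rule allowed was nearly always Aldoc, a glycolytic enzyme used as an astrocyte mark. It was found in 80.9% of members, 60.7% of precursors, 37.9% of members with Enpp6, 19.9% of oligodendrocytes and 5.60% of microglia. Held down by the same limit, Cx3cr1 and Eomes were each in 0.0245% of members and Gja1 and Cldn5 in 0.0735%.

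The limits of the rule passed through the Enpp6 population. Of the 99 members with exactly 2 mature genes, 55.6% carried Enpp6, and of the 104 barcodes just outside with exactly 3 mature genes, 93.3% did. A further 893 of the 6274 oligodendrocytes (14.2%) carried Enpp6 without a second marker. The limit on mature genes therefore ran through the cells with Enpp6. On the other limits, the 3220 members with exactly 2 of 4 markers carried Pdgfra in 97.2% of cells and the 1631 barcodes with 1 marker in 73.5%. The 527 members with exactly 2 replication and mitosis genes and the 199 barcodes just outside with exactly 3 carried Pdgfra in 93.7% and 97.0%. The 150 members with neither Pdgfra nor Cspg4 carried Enpp6 in 56.7% of cells.

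Enpp6 and Bmp4 were the markers that split the members, and their promoters are shown for that reason. Both stretches are the 250 bases before the RefSeq gene start (GRCm38.p6), upstream of the transcribed region. That of Enpp6 is at chr8:46986637-46986886 on the plus strand and that of Bmp4 at chr14:46390670-46390919 on the minus strand. Capitals mark matches, on either strand, to CAGCTG (the E-box bound by Olig2), ACAAAG (Sox factors), CTTTGAT (Tcf7l2) or CTGGNAC (used here for Myrf, with any base at N). These matches do not overlap each other here. The Bmp4 stretch held 1 match, to CTGGNAC, which reads CTGGGAC on the strand opposite to the one printed, and the Enpp6 stretch held none.
Enpp6: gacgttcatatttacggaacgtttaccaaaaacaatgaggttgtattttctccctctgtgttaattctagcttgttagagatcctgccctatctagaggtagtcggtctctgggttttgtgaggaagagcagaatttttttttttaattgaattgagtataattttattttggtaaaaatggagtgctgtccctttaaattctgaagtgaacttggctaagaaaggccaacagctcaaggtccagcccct
Bmp4: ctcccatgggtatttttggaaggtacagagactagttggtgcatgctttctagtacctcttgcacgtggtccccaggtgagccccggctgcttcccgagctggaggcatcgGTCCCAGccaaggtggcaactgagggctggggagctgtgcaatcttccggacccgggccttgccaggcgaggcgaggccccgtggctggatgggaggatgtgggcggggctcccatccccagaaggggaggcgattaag
Neu4, Mycl, Fyn, Sirt2 and Bcas1, which recur below, lie at chr1:94020451-94028334, chr4:122995652-123002485, chr10:39368855-39565381, chr7:28766735-28788661 and chr2:170346991-170427845 (GENCODE M21 genes, mm10). Over 32851 promoters of this length, 13.0% held CAGCTG, 16.5% ACAAAG, 3.21% CTTTGAT and 16.1% CTGGNAC. Of 20 genes listed as marks of committed cells, 14 had a promoter in the table, and 2, 3, 1 and 2 of them held these letters in the same order. A match is a description of letters and not a binding site.

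Genes of the lineage changed level with the number of Enpp6 UMIs in a cell. The levels are CPM, counts scaled to a common total of UMIs, over the sum of the 3910, 31, 45, 45 and 48 members with 0, 1, 2 to 4, 5 to 9 and at least 10 Enpp6 UMIs. Pdgfra was at 1189, 801, 36.5, 49.4 and 18.4 CPM. Mbp was at 53.2, 247, 632, 1594 and 1906 CPM, Sirt2, a tubulin deacetylase abundant in oligodendrocytes, at 819, 1426, 3794, 4343 and 6129 CPM, and Fyn, a kinase that links axonal contact to myelin synthesis, at 242, 710, 2421, 2583 and 2818 CPM. Pdgfra was thus low from 2 Enpp6 UMIs on, and cells with 1 UMI lay between. Gpr17 was highest in the middle bins, at 527, 791, 2072, 1986 and 1802 CPM, and Neu4 moved little, between 525 and 756 CPM. The median depth of the bins was 7103.5, 6669, 7860, 9746 and 17465.5 UMIs, so that cells with more Enpp6 UMIs were also deeper. The bins also pooled experiments of different ages and chemistries. The part of depth and of this pooling in these values was not tested.

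**Figure D2:**
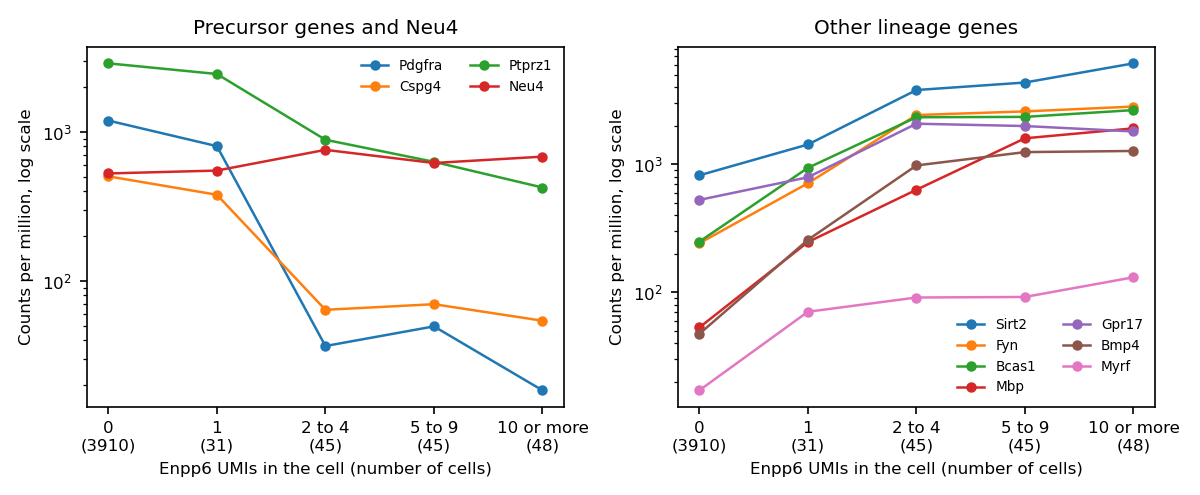
Level of precursor genes and Neu4 (left) and of other lineage genes (right) in members by the number of Enpp6 UMIs in the cell, with cells per bin in brackets (y axis, CPM summed over the cells of the bin, log scale). Pdgfra went from 1189 CPM with no Enpp6 to 18.4 CPM with at least 10 UMIs, while Mbp went from 53.2 to 1906 CPM.

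How far the members as a whole differ from precursors was tested in 1 fit of the 3 stages, with UMIs summed per experiment and stage (edgeR's quasi-likelihood test with the experiment as a block and Benjamini-Hochberg adjustment at 0.05, 7 experiments). The 27 genes of the rule and of the comparison groups were not tested. Of 6033 genes tested, 44 were higher in members (0.729%) and 10 lower (0.166%). The count and its balance depended on how the cells were chosen, with 351 higher and 424 lower for members with at least 3 of the 4 markers, 312 and 428 for precursors carrying Pdgfra or Cspg4, and 215 and 214 where no gene of other lineages was allowed. Because the stages were gated on transcripts of the same cells, genes that travel with the gating genes are carried along, and the p-values say only that a difference recurred across experiments. Chn2, a GTPase-activating protein for Rac, was higher by 2.36 on the log2 scale (SE 0.38, adjusted p = 0.00064). Mbp was higher by 1.62 (SE 0.32, adjusted p = 0.0073) and the Myc family gene Mycl by 1.32 (SE 0.13, adjusted p = 3.7e-07). Each of these was higher in 7 of 7 experiments. The lens filament gene Bfsp2 (log2 difference 1.33), the myelin enzyme Cnp (1.17) and the kinase Pim3 (0.97) were also higher in every experiment. The lower genes moved less, with Gfod2 at -0.63, the insulin-like growth factor receptor Igf1r at -0.58, Fam212b at -0.45, the chemokine Cxcl14 at -0.38, the polymerase subunit Rev3l at -0.36 and the glutamate transporter Slc1a3 at -0.34.

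The list of marks of committed and newly formed cells held 5 higher and no lower genes among 11 tested of 20 listed, with a median log2 difference of 0.49 against 0.0074 over all genes tested. The 5 were Bcas1 (log2 difference 1.19, SE 0.17), Fyn (1.11, SE 0.17), the adhesion adaptor Lims2 (0.97, SE 0.10), Mpzl1 (0.82, SE 0.16) and Sirt2 (0.81, SE 0.11). With members without Enpp6 in place of all members, a choice made after seeing the data, only Lims2 of these 5 was called (0.58). Lims2 was at 182 CPM in its lowest, 229 in its median and 334 in its highest precursor sample, and at 311, 424 and 656 CPM in members, so that only the top of the precursor range reached the members. Fyn was at 115, 167 and 232 CPM in precursors and at 238, 392 and 626 CPM in all members, without overlap. Its range in members without Enpp6, given below for 5 experiments, did overlap that of precursors. Among the genes of the list that did not pass were Tcf7l2 (0.29, adjusted p = 0.64), Itpr2 (0.16, adjusted p = 0.73), Nkx2-2 (0.27, adjusted p = 0.38) and Myrf (0.49, adjusted p = 0.60), all of them transcription factors except the calcium channel Itpr2.

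Of 19 tested precursor genes none was called in either direction (median log2 difference -0.060), which at 0.729% higher and 0.166% lower over all genes is the background and no result about the list. Cspg5, a proteoglycan, was at 2320, 4384 and 5726 CPM in the lowest, median and highest precursor sample and at 2323, 4453 and 5388 CPM in members. The myelin and mature list had 4 of 29 tested genes higher, among them Mbp, Cnp and the chaperone Cryab, and the cytoskeleton list 4 of 25 (Map1b, Tubb4a, Tuba1a and Tmsb4x). Sox8 (log2 difference 0.44) of the 4 lineage-wide genes and the cell cycle inhibitor Cdkn1c (0.91) of 8 cell cycle exit genes were higher. With so few genes called over all, the lists with no call say nothing particular to them, and these were the 16 cholesterol, 8 Notch, 8 BMP and 5 Wnt genes and the 11 that hold differentiation back, among them Hes5 (-0.31, adjusted p = 0.49).

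Fewer genes were called when members with Enpp6, or members with any mature gene, were left out. With members without Enpp6 in place of all members, in the same fit of 3 stages and 7 experiments and a choice made after seeing the data, 7 of 6009 genes were called. Mycl (log2 difference 0.79), the ligand Wnt4 (0.73), the calcium-binding gene S100a4 (0.63), Lims2 (0.58) and the mitochondrial ribosomal gene Mrps7 (0.37) were higher, and the transcription factor Creb5 (-0.51) and the growth factor Vegfa (-0.42) lower. With members that carried no mature gene, 13 genes were called, and Mbp was at 0.029 (adjusted p = 1.0). The count for all members was 26 without the 1-month experiment, 32 without the second and 25 without the third 6-month experiment. With each cell thinned to 1500 UMIs it was 9 of 1650 genes tested, and with no experiment block 5.

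Against oligodendrocytes in the same fit, 2411 of 6033 genes were higher in members (40.0%) and 2469 lower (40.9%), a split that moved to 4049 and 1220 with scaling by total UMIs, at a median log2 difference over all genes of 0.54 in place of -0.018. All 19 precursor genes tested were higher, for example C1ql1, a synaptic organizer ligand (log2 difference 7.72, SE 0.24, 1770 against 6.36 CPM). All 29 myelin and mature genes were lower, for example the myelin membrane gene Mal (-10.25, SE 0.39, 17.0 against 5275 CPM), the iron carrier Trf (-9.32, 25.7 against 5590 CPM) and Aspa, which cleaves N-acetylaspartate (-9.48, 4.66 against 897 CPM). Oligodendrocytes were gated on mature genes and members limited in them, and a gene could pass the detection filter through any single stage. The directions of the precursor and mature lists were therefore favored in advance and are a description. Of 16 cholesterol genes 13 were lower, and 17 of 18 fatty acid and sphingolipid genes. Of the genes that hold differentiation back 10 of 11 were higher, of Notch genes 7 of 8 and of transmitter receptors and channels 14 of 18. The marks of committed cells were mixed, with 7 higher and 3 lower of 11. Mycl, outside that list, was at 6.32, and Itpr2 (2.43) and Fyn (2.39) were among the higher genes and Myrf (-3.58) among the lower.

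In the contrast of members with the mean of the other 2 stages, 2006 genes were higher (33.3%) and 1894 lower, or 3529 and 962 with scaling by total UMIs. A gene that both members and precursors hold above oligodendrocytes also enters this count. The genes named here were also higher in members than in each other stage in every experiment. Mycl was higher than that mean by 3.82 on the log2 scale, Wnt4 by 3.13 and the protease inhibitor Timp4 by 3.00, all with SE at most 0.16, and these 3 also passed against precursors alone. C1ql1, at 3.96, and the extracellular matrix gene Tnr, at 3.44, did not pass against precursors, with log2 differences of 0.19 (adjusted p = 0.782) and 0.21 (adjusted p = 0.709) in edgeR. Mycl was at 27.1, 45.4 and 84.9 CPM (lowest, median and highest experiment) in precursors, 40.1, 132 and 225 CPM in members and 0, 0.396 and 3.43 CPM in oligodendrocytes. The ranges of members and precursors overlapped, although members were higher within each of the 7 experiments. Timp4 was at 159, 220 and 232 CPM in precursors, 251, 317 and 443 CPM in members and 0, 4.04 and 6.20 CPM in oligodendrocytes, without overlap.

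**Figure D3:**
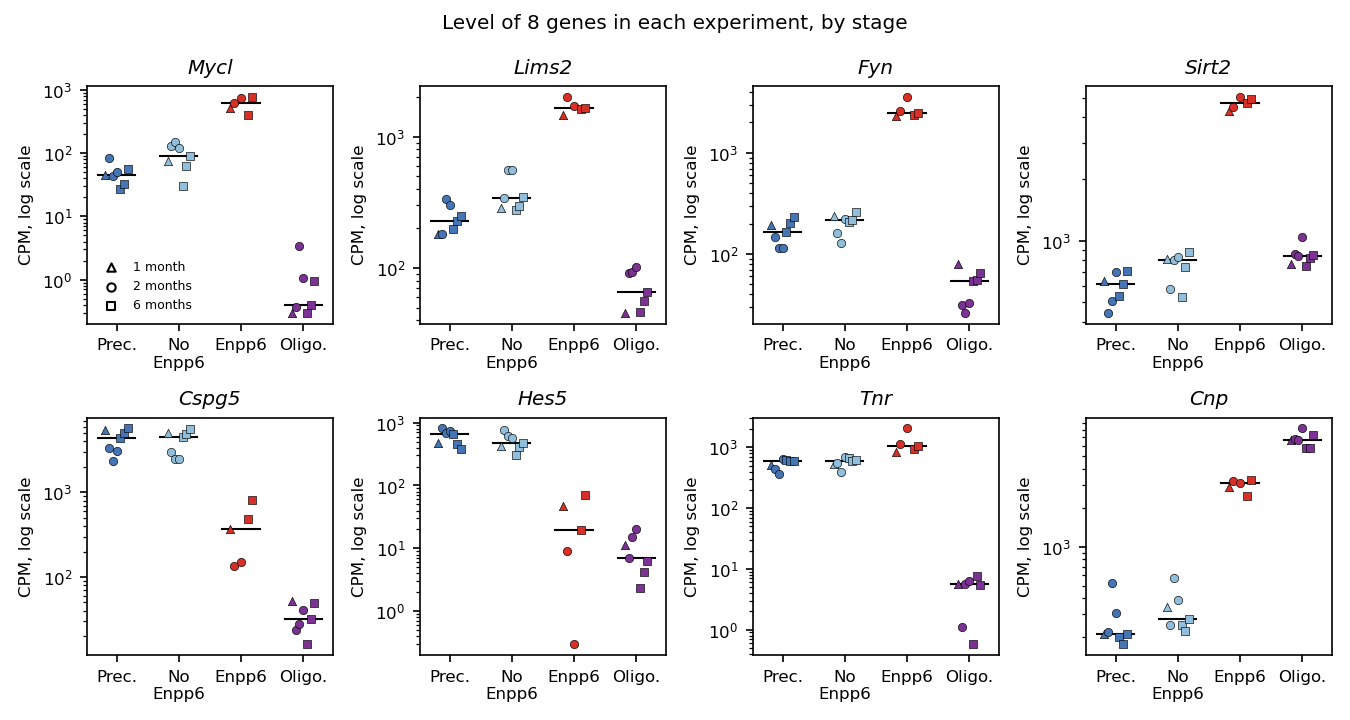
CPM (y axis, log scale) of 8 genes in each experiment for precursors, members without Enpp6, members with Enpp6 (experiments with at least 5 such cells) and oligodendrocytes, with bars at the medians and symbols for age. Values listed at 0 are drawn at 0.3. Mycl, Lims2, Fyn and Sirt2 sit above all other stages in members with Enpp6, while Cspg5 and Hes5 are low there and Cnp lies between members without Enpp6 and oligodendrocytes.

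Members with Enpp6 were then set beside the other members in the 5 experiments with at least 5 of them. This description gives fitted differences of at least 2-fold with no test. Of 7077 genes, 427 were higher (6.03%) and 833 lower (11.8%). Fyn was at 2343 CPM at 1 month, 2618 and 3587 CPM at 2 months and 2355 and 2488 CPM at 6 months, against 128 to 262 CPM in members without Enpp6. All 5 values were therefore above every value of the other members. Mycl was at 514, 632, 747, 397 and 779 CPM in the same order. The other members had 30.7 to 150 CPM of Mycl, again without overlap. Cnp was at 2460 to 3256 CPM over the 5 experiments, against 222 to 572 CPM in the other members and 5820 to 8222 CPM in oligodendrocytes, and the 3 ranges were apart.

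By role, the marks of committed cells were at least 2-fold higher for 14 of 15 genes, with a median log2 difference of 2.62 against -0.012 over all genes. A gene could pass the detection filter through members with Enpp6 alone, which favors genes that are high there. The lists were also chosen with earlier results known, so this count and those of the lists below are a description. Bcas1 was higher by 3.18, Sirt2, Mpzl1 and Myrf by 2.62, Lims2 by 2.33, Tcf7l2 by 1.69, Nkx2-2 by 1.34 and Itpr2 by 1.04, and Tmem163 was at 0.63. Among genes with at least 50 CPM in the higher set and the same direction in all 5 experiments, the 10 with the largest positive differences included the long noncoding RNAs 9530059O14Rik (7.07, 379 against 4.69 CPM) and 9630013A20Rik (5.45), the cofilin phosphatase Ssh3 (5.88), the integrin chain Itgb7 (5.77), Chn2 (5.57, 819 against 18.9 CPM), Ggct, an enzyme of glutathione breakdown (5.12), the scaffold Frmd4a (5.12), the centriole gene Poc1a (112 against 1.96 CPM) and Mbp (4.77, 2325 against 81.4 CPM). Of 14 differentiation transcription factors 5 were higher, among them Zfp365 (2.43) and Zeb2 (1.34), and none was lower. Of 29 myelin and mature genes 9 were higher and 6 lower. Cnp (2995 against 295 CPM) and Cryab (1.81) were higher, while Mal, a membrane protein of myelin, was at 0 to 9.03 CPM against 0.324 to 60.2 CPM in the other members.

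Precursor genes were lower for 13 of 19 and higher for none. Cspg5 was at -3.28 on the log2 scale, with the receptor phosphatase Ptprz1 at -1.86, Serpine2 at -1.84, Lhfpl3 at -1.55 and C1ql1 at -1.43. The list was not uniform, since Tnr was higher by 0.86 and Sox6 by 0.28, and Gpr37l1 was at -0.16. Of 11 genes that hold differentiation back 6 were lower, including Id2 (-3.32), Hes5 (-3.18) and Hes1 (-3.12). Hes5 was at 47.5, 9.03, 0, 19.7 and 71.4 CPM in members with Enpp6, in the order of experiments given for Fyn, against 302 to 776 CPM in the others. In the Notch list 6 of 8 genes were lower, with the ligands Jag1 (-2.87), Dll1 (-2.38) and Dll3 (-2.00) and the receptor Notch1 (-1.23). Among the genes with the largest decreases by the naming rule were Spry4, a feedback inhibitor of receptor tyrosine kinase signaling, at -4.11 and the transcription factor Etv4 at -3.60 (9.72 against 165 CPM). Cyclin D1 (Ccnd1) was at -2.93 and Cdkn1c at 1.60.

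Other lists were described the same way. Of 18 transmitter receptors and channels 10 were lower, such as the potassium channel Kcnd2 (-2.44), but the glutamate receptor subunit Gria2 was at 0.56. Of 25 cytoskeleton genes 8 were higher and 7 lower, with Tubb4a (3.31), Map1b (3.24) and Tuba1a (1.75) higher and the growth cone gene Gap43 (-1.51) lower. None of 19 cholesterol genes differed by 2-fold, and 3 of 19 fatty acid and sphingolipid genes were higher and 2 lower. In the BMP list 1 of 8 was higher (the inhibitor Smad7, 1.08) and 3 were lower, in the Wnt list none of 6 differed, and in the cell death list 2 of 8 were higher, among them the lysosomal regulator Tfeb (2.17), and none lower. Of 7 astrocyte and stem cell genes 6 were lower, and the summed level of that list of 12 had a median of 1816 CPM in members with Enpp6, 7980 CPM in the others and 8117 CPM in precursors, with Apoe the most abundant. The nestin reporter transcript eGFP was at -3.25 (69.4 against 465 CPM), and GFP was one of the gates of the sort.

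Against oligodendrocytes, members with Enpp6 had 1294 genes at least 2-fold higher (18.3%) and 1051 lower (14.9%). With scaling by total UMIs these were 2163 and 648, at a median log2 difference over all genes of 0.55 in place of -0.011. The marks of committed cells were higher for 14 of 15, Myrf being the exception (-1.44), and all 19 precursor genes were higher. A gene could again pass the detection filter through a single cell set, and the gating favored these directions and those of the mature genes. Of 29 myelin and mature genes 27 were lower and of 19 cholesterol genes 9. Mbp was at -2.08, whereas Mal (4.63 against 5768 CPM) and the tubulin regulator Stmn1 of the cytoskeleton list (-6.65, 80.4 against 4146 CPM) differed far more. Set against the mean of the other members and of oligodendrocytes, 706 genes were at least 2-fold higher in members with Enpp6 (9.98%). Those named by the rule included the calcium buffer Pvalb (74.3 CPM, against 1.68 CPM for that mean), the G protein subunit Gng4 (62.4 against 3.49 CPM), the kinesin Kif19a (70.0 against 1.91 CPM), the matrilin Matn1 (134 against 4.92 CPM), Mycl (614 against 48.3 CPM) and the repair gene Brca1 (72.6 against 2.66 CPM).

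Within the markers, 27 members carried Enpp6 without Bmp4 and 833 Bmp4 without Enpp6. Both kinds reached 5 cells in 2 experiments, the second and the third at 6 months, and the fit there had 1 residual degree of freedom. In edgeR's quasi-likelihood test 11 of 6774 genes were higher with Enpp6 alone (0.162%) and 0 lower (0.0%), with 291 genes at an unadjusted p under 0.05 in either direction. DESeq2 called 0 genes, with 39 at an unadjusted p under 0.05. The membrane skeleton gene Epb41l2 was higher by 2.56 (SE 0.47, adjusted p = 1.1e-04), at 328 against 37.7 CPM. Slc27a3 (2.55), Mical3 (2.04), the focal adhesion gene Tns3 (1.71) and the prostaglandin synthase Ptgds (1.65) were also higher. Fyn (1.58, 956 against 282 CPM), Bcas1 (1015 against 311 CPM), Cnp (1.23), Cdc37l1 (1.55) and Dynll2 (1.24) were among the 11 and are named after their values were seen.

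The recombined reporter records Ki67 expression during labeling, in the cell or in one it descended from. A cell counted as recombined when it had more than 1 UMI of the 3' elements that are transcribed after recombination and fewer than 4 of the intact locus, limits that were doubled with Version 3. By that rule 94 of 4079 members were recombined. The share in members was 0.904% in its lowest, 2.53% in its median and 8.14% in its highest experiment, against 0.889%, 2.04% and 8.63% in precursors and 0%, 0.460% and 1.02% in oligodendrocytes, where the 0 came from 16 cells and allows up to 18.75%. The ranges of members and precursors overlapped almost wholly, and members were above oligodendrocytes in 7 of 7 experiments. The mean difference was 0.44 ± 2.39 percentage points from precursors (SD, n = 7, exact sign-flip permutation test, two-sided, p = 0.609, adjusted p = 0.609). It was 3.28 ± 2.98 points from oligodendrocytes (SD, n = 7, exact test p = 0.0156, the smallest that 7 pairs allow, adjusted p = 0.0625 over 4 tests). Neither passed after adjustment. The share depends on depth per cell, so the fraction of reporter UMIs that came from the recombined locus was tested as well. It differed by -0.90 ± 1.85 points from precursors (SD, n = 7, exact p = 0.219, adjusted p = 0.292) and by 2.77 ± 3.16 points from oligodendrocytes (SD, n = 7, exact p = 0.0469, adjusted p = 0.0938), higher in 6 of 7 experiments. The sign of both differences from precursors depended on the setting. That of the share was -0.54 with the same limits in both chemistries, and that of the fraction 4.96 with at least 3 of the 4 markers. The cells were sorted for GFP and tdTomato, and eGFP was found in 79.6% of members, 71.3% of precursors and 44.8% of oligodendrocytes. The part of the sort in the differences between stages was not tested.

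**Figure D4:**
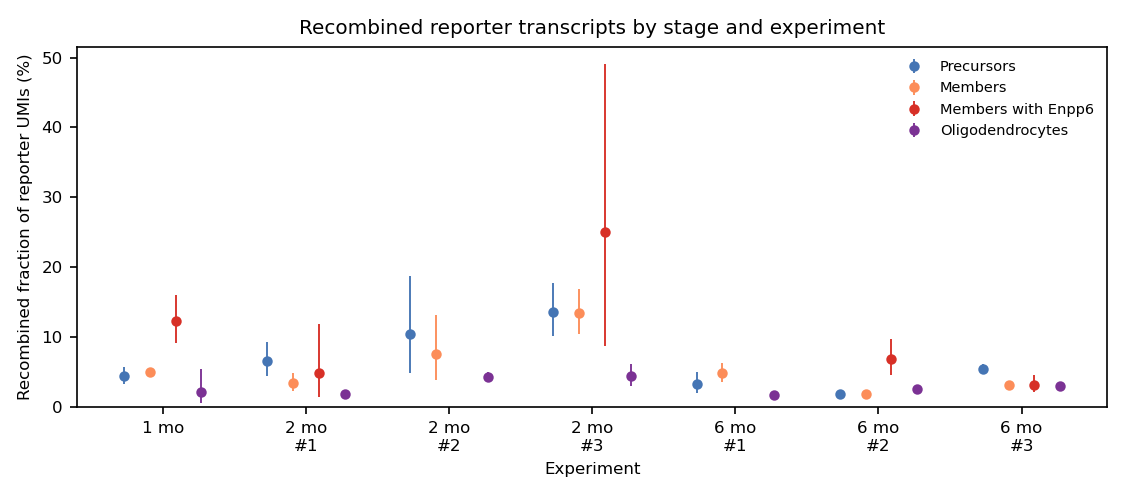
Fraction of reporter UMIs from the recombined locus (y axis, percent, with 95% exact binomial intervals for counting error) in each experiment for precursors, all members, members with Enpp6 (experiments with at least 5 such cells) and oligodendrocytes. Members lie above precursors in 3 of 7 experiments and below them in 4, for example in the third 6-month experiment (3.12% against 5.39%). The intervals take each UMI as independent, although UMIs of the same cell are not, and so can be too narrow. The interval of members with Enpp6 in the third 2-month experiment, around 25.0%, rests on 9 cells.

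Recombination and Enpp6 within members are given as a description with no test. Over all experiments together, which differed in both shares, Enpp6 was found in 13 of 94 recombined members (13.8%, exact 95% interval 7.57 to 22.5%) and 156 of 3985 others (3.92%, 3.33 to 4.56%). Within the 5 experiments with at least 5 members with Enpp6, the recombined share was 13.2% with Enpp6 and 5.08% without it at 1 month, 4.76% against 2.26% and 11.1% against 7.98% at 2 months, and 10.3% against 0.673% and 2.90% against 1.56% at 6 months. These shares rest on 1 to 5 recombined cells with Enpp6 in each experiment, and cells with Enpp6 were deeper (a median of 9533 against 7103.5 UMIs), the part of which was not tested. The recombined fraction of reporter UMIs in members with Enpp6 was 12.2% at 1 month, 4.82% and 25.0% at 2 months and 6.83% and 3.18% at 6 months. In the other members of those experiments it was 4.49%, 3.22%, 12.9%, 1.73% and 3.12%. It was higher with Enpp6 in each of these 5 experiments, by little in the last, and the 2-month values rest on 4 and 5 recombined UMIs. Among members with at least 3 of the 4 markers it was lower with Enpp6 in 2 of the 5, at 26.3% against 50% in the third 2-month experiment and 2.78% against 3.33% in the third 6-month experiment.

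Gene by gene, recombined members were compared with unrecombined ones in the 6 experiments with at least 5 of each. Of 5923 genes, 7 were higher (0.118%) and 4 lower (0.0675%) in recombined members (edgeR, adjusted p under 0.05). The 4 that changed the same way in every experiment were the actin binding gene Tmsb4x, higher by 0.54 on the log2 scale (SE 0.13, adjusted p = 0.031), and Tmem59l, Hes5 and Apoe, lower by 1.16, 0.78 and 0.59. Hes5 was at 160, 266 and 328 CPM (lowest, median and highest of 6) in recombined members and at 305, 446 and 642 CPM in unrecombined ones (of 7), so that only the top of the recombined range overlapped. Fyn (1.04), Cnp (0.88), Bcas1 (0.81), Fos (0.80), Tubb4b (0.68) and Dynll2 (0.62) were higher and Ptgds (-1.38) lower, in 4 or 5 of 6 experiments, and are named after their values were seen. Fyn was at 160, 950 and 1753 CPM in recombined and 244, 392 and 591 CPM in unrecombined members. Over all experiments together, cells with Enpp6 made up 13.8% of recombined and 3.92% of unrecombined members. Their part in these differences was not tested. These comparisons rest on few cells, with 5 recombined cells in the smallest sample, and DESeq2 called 0 genes, with 193 at an unadjusted p under 0.05 (361 in edgeR). The count was 7 without the third 2-month experiment, 18, 5 and 24 without the first, the second and the third 6-month experiment, and 0 with no experiment block. The balance turned with no gene filter, at 3 higher and 42 lower, and was 21 and 7 with scaling by total UMIs.

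Age was compared in 1 edgeR fit of the 3 ages. Both 6 months and 1 month used Version 3, and the single 1-month experiment was assumed to vary like the others. Of 6226 genes, 27 were higher at 6 months than at 1 month (0.434%) and 10 lower (0.161%). Of the immediate early genes 3 of 10 were higher (Fosb, Fos and Junb), with a median log2 difference of 0.72 against 0.013 over all genes. Fosb was at 10.0 CPM at 1 month, 27.3, 28.6 and 27.2 CPM at 2 months and 45.2, 67.8 and 81.6 CPM at 6 months. Its difference between 6 months and 1 month was 2.79 on the log2 scale (SE 0.32, adjusted p = 3.3e-06). Fos differed by 1.31 (SE 0.25), and Junb was at 136 CPM at 6 months against 51.4 CPM. Dissociation of tissue is known to raise these genes, and its part was not tested. Precursors showed the same order, with 9.45 CPM of Fosb at 1 month and 72.2 to 80.4 CPM at 6 months. The transcription factor Maf (1.75) and Ptgds (1.71), the Notch target Hes1 (1.42) and Mfge8 (0.90) were also higher, as were Gm8797 (2.65), C130073E24Rik (1.89) and AC149090.1 (1.64).

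The lower genes at 6 months included 2 marks of committed cells of the 11 tested, Tmem163, a zinc transporter (-1.51, SE 0.29, adjusted p = 0.0070), and Bcas1 (-1.01, SE 0.24, adjusted p = 0.037). Bcas1 was at 612 CPM at 1 month and 203, 310 and 373 CPM at 6 months, and Tmem163 at 216 CPM and 92.8, 71.7 and 75.5 CPM. Hddc3 (-1.95), Gm10076 (-1.61), Gm17669 (-1.27) and the imprinted gene Ndn (-1.00) were lower too. In members without Enpp6, Tmem163 was at -1.49 (adjusted p = 4.2e-04) and Fosb at 2.74 (adjusted p = 5.3e-07), while Bcas1 was at -0.51 (adjusted p = 0.81). Without the third 6-month experiment only 2 genes were called, and without the second 18, while DESeq2 called 6. Leaving out the first 2-month experiment gave 74, and the Version 3 experiments alone 86.

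Whether these age differences were particular to members was tested as an interaction with precursors in the 4 Version 3 experiments, with 2 residual degrees of freedom. No gene was more positive in members (0 of 6066, 0.0%) and 2 were more negative (0.033%), with 331 genes at an unadjusted p under 0.05 in edgeR and 1 gene called by DESeq2, which had 41 under that p. Bcas1 differed by -0.87 on the log2 scale (SE 0.16, adjusted p = 0.0026). It was at 183 CPM in precursors at 1 month and 145, 170 and 200 CPM at 6 months, so that the 1-month value lay within the 6-month range there and above it in members. The 1-month experiment held 16 oligodendrocytes and the 6-month experiments 1622, 869 and 1172, and the part of RNA released from them was not tested.

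The share of members with Enpp6 was 7.45% at 1 month, 10.6%, 2.15% and 5.23% at 2 months and 1.19%, 2.38% and 3.82% at 6 months. The share with Bmp4 was 48.2% at 1 month, 27.3%, 25.8% and 14.5% at 2 months and 13.1%, 17.7% and 22.2% at 6 months. Both were lower in all 6-month experiments than in the 1-month experiment, and both overlapped between 2 and 6 months. The markers chose the cells, so these shares are given with no test. Members made up 81.1% of the 3 stages together at 1 month, 22.0%, 5.12% and 27.1% at 2 months and 4.79%, 52.7% and 55.7% at 6 months. The means were 18.1 ± 11.5% at 2 months and 37.7 ± 28.6% at 6 months (SD, n = 3 each, exact permutation test, two-sided, p = 0.40, where 0.10 is the smallest possible). The gap of 19.7 points was 2.86 when cells were thinned to 1500 UMIs before the stages were called (17.9% against 15.1%). It was 9.25 for members with at least 3 of the 4 markers (12.4% against 3.10%). Leaving out 1 experiment gave 10.7 to 36.1, the highest without the first 6-month and the lowest without the third. The part of the sort in these shares was not tested.

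**Figure D5:**
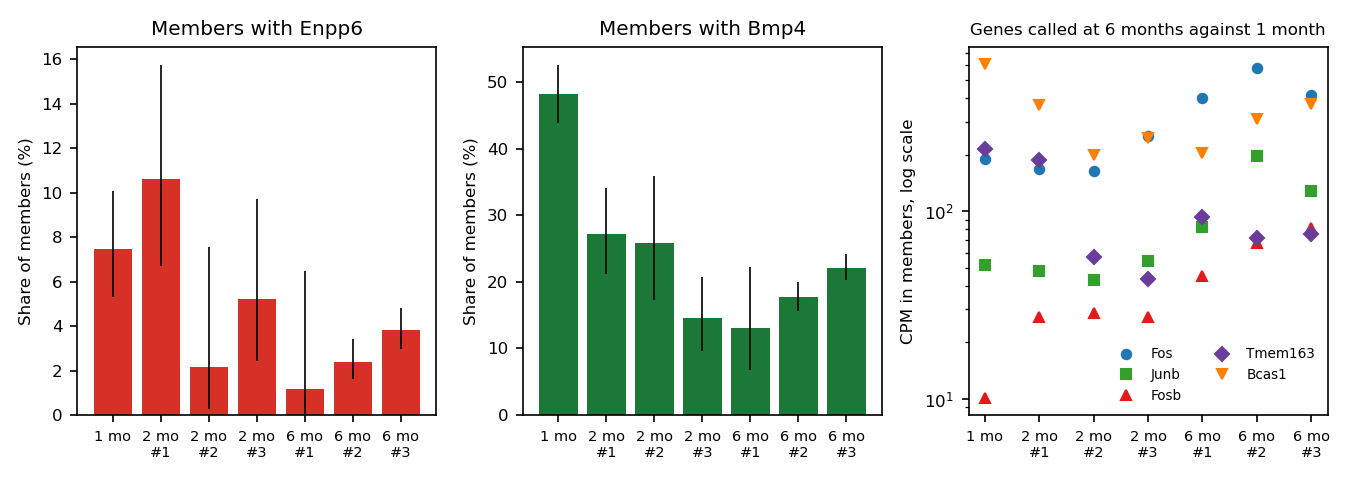
Share of members with at least 1 UMI of Enpp6 (left) or Bmp4 (middle) in each experiment, in percent with 95% exact binomial intervals for counting error, and CPM in members of 5 genes called at 6 months against 1 month (right, log scale). Bmp4 was found in 48.2% of members in the 1-month experiment and in between 13.1 and 22.2% at 6 months, and Fosb runs from 10.0 to 81.6 CPM.

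Between 6 months and 2 months 937 genes were higher (15.0%) and 844 lower (13.6%), 1163 in all without the second 6-month experiment, and here age and chemistry cannot be told apart. By the naming rule, the genes with the largest differences included the ribosomal RNA locus transcript Gm42418 (4.88), Hist1h4d (4.06), Eid2 (3.85), Lars2 (3.74) and the mitochondrial mt-Atp8 (3.59) on the higher side. On the lower side were Mbp (-3.10), Rpl23a (-2.37), mt-Nd1 (-2.26), Rpl13a (-2.24), Igsf9b (-2.07) and Oaz2 (-2.05). Gm42418 was at 3696 CPM at 1 month, also Version 3, at 59.8 to 107 CPM at 2 months and at 1465 to 4180 CPM at 6 months, high in every Version 3 experiment and low in every Version 2 experiment.

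Markers of other cells were measured beside these results. The summed level of 9 microglia genes in members was 30.1 CPM in its lowest, 41.9 in its median and 153 in its highest experiment. The 11 endothelial and mural genes summed to a median of 136 CPM in members (84.5 to 196) and 257 CPM in precursors (54.2 to 435, the highest in the second 6-month experiment), where the mural gene Vtn was the most abundant. The 5 blood genes summed to 5.11 CPM in members and the 11 neuronal genes to 437 CPM, with Sox11 the most abundant. The 12 astrocyte and stem cell genes summed to a median of 7311 CPM in members and 8117 CPM in precursors, mostly Apoe, and Hopx, a mark of stem cells and astrocytes, was found in 5.66% of members and 4.19% of precursors. The rule itself limited Cx3cr1, Cldn5, Gja1, Stmn2 and Eomes in members, so that their shares there do not measure RNA from other cells. Their part in the differences above was not tested.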

How the data were processed

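Single cells from 8 libraries were counted by the authors with Cell Ranger 3.0.2 against mm10 with added reporter sequences (eGFP, the intact tdTomato locus and the 3' elements WPRE and bGHpolyA), and the libraries were merged without depth normalization; cutadapt 1.18 is also named in the submitters' processing notes. The deposited values were raw UMI counts per gene and barcode, and no doublet caller was run. Members, precursors and oligodendrocytes were selected by detected genes, and the members and all gene lists were chosen with earlier results of these data known. UMIs were summed per experiment and cell set with at least 5 cells. Genes detected in at least 20% of the cells of a set were tested with edgeR 4.0.16 (quasi-likelihood, TMM scaling, Benjamini-Hochberg at 0.05, R 4.3.3), with the experiment as a block except between ages. DESeq2 1.42.0 was an alternative. Stages of an experiment came from the same pooled mice, which is where the pairing comes from.

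Named genes were the 10 largest changes in each direction (6 for Enpp6 alone against Bmp4 alone, recombination and ages) that passed the test, or for members with Enpp6 the 10 largest of at least 2-fold with no test, that went the same way in every experiment and reached a mean of 50 CPM in the higher group, plus the 4 most abundant tested genes of each list. Others were named after their values were seen. Values of some genes that meet these rules are not reported here, while counts over all genes and lists include them. In simulated data for members against precursors (6033 genes), 68.7% of genes changed by a log2 difference of 0.5 were recovered and 7.7% of calls were false. For recombined members (5923 genes), 11.9% were recovered at 0.5 and 61.2% at 1. The simulated samples shared a common mean profile apart from the changed genes, without differences between experiments, chemistries or stages. These rates therefore do not cover such differences or the gating of the cells. Exact binomial intervals (95%) cover counting error only, and those of reporter UMIs take each UMI as independent. The limit that a count of 0 allows was instead set at 3 counts of the cells.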

Additional observations from a re-analysis of the deposited data

Results flagged for a closer look

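In the third 2-month experiment, the recombined fraction of reporter UMIs was 9.05 percentage points higher in members than in oligodendrocytes, far from the other 6 experiments. Its gap to the nearest of them was 0.594 of the whole range. Chance sets apart about 1 in 20 groups in this way.

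The difference between 6 months and 1 month was not the same in members and precursors for Bcas1, by the interaction term of edgeR. The difference was -0.87 on the log2 scale, and it rests on 1 experiment at 1 month. In members without Enpp6 the difference of Bcas1 between these ages was -0.51, smaller than in all members.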

How the results depend on the processing

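For members against precursors (54 genes), the count was 140 with no gene filter, 5 with no replicate block, 775 with members of at least 3 markers, 429 with no gene of other lineages, 13 with no mature gene, 740 with precursors carrying Pdgfra or Cspg4 and 9 with cells thinned to 1500 UMIs (1650 genes tested in place of 6033). In settings chosen after seeing the data it was 7 with members without Enpp6, 62 in the 5 experiments with at least 5 members with Enpp6, 7 with both choices (Mbp at -0.019) and 8 in the fit of 4 cell sets there. Leaving out 1 experiment gave 25 to 60. For members against oligodendrocytes (4880) it was 10603 with no filter and 1434 of the 1650 thinned, and against the mean of both stages (3900) 7346, 1204 of 1650, 2515 with no replicate block and 2394 with no gene of other lineages. Enpp6 alone against Bmp4 alone (11) gave 0 in DESeq2 and 5 with no filter, and leaving out an experiment could not be fitted.

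Recombined against unrecombined members (11) gave 28 with total UMIs, 0 in DESeq2, 45 with no filter, 0 with no replicate block and 5 to 24 leaving out 1 experiment. For 6 months against 1 month (37) the counts were 19, 6 and 107 in the first 3 of these settings, 86 with Version 3 alone (chosen after seeing the data) and 2 to 74. For 6 against 2 months (1781), leaving out 1 experiment gave 1163 to 1761. The interaction (2) gave 1 in DESeq2, 5 with no filter and 2 to 5, and could not be fitted without the 1-month experiment. Genes that differed 2-fold with Enpp6, compared after seeing the data, numbered 1260 of 7077 tested against other members, 2345 against oligodendrocytes and 1325 against their mean, and 440, 784 and 504 of the 1821 tested when thinned.

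The recombined share of members less precursors was 4.28 points with at least 3 markers, -0.54 with the same limits in both chemistries, -0.47 thinned and -0.14 to 0.82 leaving out 1 experiment (-0.11 without the 1-month and -0.14 without the first 6-month experiment). The fraction less precursors was 4.96 with at least 3 markers. Less oligodendrocytes, the share was 7.12 and the fraction 8.63 with at least 3 markers, and the fraction 1.73 to 3.34 leaving out 1 experiment, with p above 0.05 except without the second 6-month experiment. The cause of these changes was not tested. Few Enpp6 cells and few recombined cells limit the depth of those comparisons.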
